A study of Mus musculus with 6 samples.

Results

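The T cell receptor complex and its coreceptors were followed as 10 genes, *Cd3e*, *Cd3d*, *Cd3g*, *Cd247*, *Cd4*, *Cd8a*, *Cd8b1*, *Lck*, *Zap70* and *Cd5*, of the 25860 genes in the deposited count table. They were chosen by name, as the signalling chains, coreceptors, proximal kinases and an inhibitory coreceptor of the T cell receptor, and all 10 reached the minimum of 10 reads summed over the libraries. RNA came from normal-looking lung of 6 mice, each sequenced as 1 library. The RAG1-/- group holds replicates 1, 2 and 3, and replicates 4, 5 and 6 form the RAG1-/- Sgo1-/+ group. All 6 mice were 12 months old, untreated and on a C57BL/6 background. Both groups carry the RAG1 deletion, which removes the recombinase that joins antigen receptor gene segments, and the second group also has a single working copy of Sgo1, which encodes Shugoshin-1, a protector of chromosome cohesion. The comparison asks what the loss of a Sgo1 copy changed in the lung on the RAG1-/- background.

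A T cell recognizes antigen through a variable alpha/beta or gamma/delta receptor that has no signalling domain of its own. The receptor is carried by the CD3 epsilon, delta and gamma chains and by the zeta chain (Cd247), whose tyrosine motifs are phosphorylated by the kinase Lck and then bound by the kinase ZAP-70. Lck is brought to the receptor by the coreceptors CD4 and CD8, the latter a dimer of alpha and beta chains (Cd8a, Cd8b1). Several of these parts are not private to T cells. Natural killer (NK) cells use Cd247, Lck and Zap70 behind their own receptors. Some dendritic and innate lymphoid cells carry Cd4, and some dendritic cells carry Cd8a without Cd8b1. For this reason Cd247, Lck, Zap70, Cd4 and Cd8a (5 genes, shared) were kept apart from Cd3e, Cd3d, Cd3g, Cd8b1 and Cd5 (5 genes, T cell-restricted). The division is one of degree, as low CD3 transcripts occur in some innate lymphocytes and Cd5 is also carried by a subset of B cells.

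The part that the signalling chains have in common is the immunoreceptor tyrosine-based activation motif (ITAM), a pair of tyrosines each followed at a fixed step by leucine or isoleucine. In the GENCODE M21 transcripts (GRCm38) 1 such motif was found in each of Cd3e, Cd3d and Cd3g and 3 in Cd247. The other 6 members held 0 motifs of this pattern. Tyrobp and Fcer1g, adaptors of NK and myeloid receptors, held 1 motif each. The coding stretches are shown because the adaptors of innate cells carry the same kind of element as the receptor chains, and the capitals mark the codons of the paired tyrosines.
Cd3e: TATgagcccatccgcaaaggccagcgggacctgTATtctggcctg
Cd3d: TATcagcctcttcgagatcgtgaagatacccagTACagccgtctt
Cd3g: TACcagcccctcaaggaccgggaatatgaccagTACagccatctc
Cd247 motif 1: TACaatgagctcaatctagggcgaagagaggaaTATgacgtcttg
Cd247 motif 2: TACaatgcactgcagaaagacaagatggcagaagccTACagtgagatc
Cd247 motif 3: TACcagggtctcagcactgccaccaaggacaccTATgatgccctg
Tyrobp: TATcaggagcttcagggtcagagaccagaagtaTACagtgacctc
Fcer1g: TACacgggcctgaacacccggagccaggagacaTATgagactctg

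Before the members are compared, a library that goes against its label must be described. The library labelled RAG1-/- replicate 2 held 1164 reads over 94 of the 222 immunoglobulin variable segments in the table, whereas the other 5 libraries held between 0 and 4. It had 1853 reads of Igkc (immunoglobulin kappa constant region) and 69 of Cd79a (a signalling chain of the B cell receptor). In the other 5 libraries Cd79a had 0 to 2 reads and Igkc 0 to 8. Cd79b, which encodes the partner chain of Cd79a, was read in all libraries, with 171 reads in replicate 2 and 24 to 74 elsewhere. Replicate 1 was the sole library with high Xist (7717 reads, against 4 to 8), so it also differs from the others in sex. Counts on genes ranged from 3205822 to 9366774 per library, so that 3 reads, taken as the smallest detected amount, corresponded to 0.320 to 0.936 CPM (reads of a gene over all counted reads of its library, times 1000000). Sgo1 had 6, 2 and 4 reads in the RAG1-/- lungs, against 6, 0 and 2 in the RAG1-/- Sgo1-/+ lungs, and Rag1 had 24, 10 and 16 against 12, 8 and 8, so reads on these loci did not separate the genotypes. Genes of the lung itself were at 76064 to 98139 summed CPM over a list of 8 (surfactant, club cell, alveolar, endothelial and collagen genes) in all 6 libraries.

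Reads of the T cell-restricted genes came mainly from 2 libraries, RAG1-/- replicate 2 and RAG1-/- Sgo1-/+ replicate 6, that is from a mouse of each group. These libraries held 113 of the 156 T cell-restricted reads (72.4%) while they held 23.7% of all reads on genes. For 7 of the 10 members the 2 highest CPM values were those of replicates 2 and 6, as for 8.14% of all genes tested. This count describes the same reads by which these libraries were singled out. The 3 exceptions were Cd247, Lck and Zap70, which NK cells also use. Among the 7, Cd3d had only 2 reads in replicate 6, fewer than the 3 taken as the smallest detected amount. Cd4, also among them, was at 2.50 CPM in replicate 6 against 2.42 CPM in replicate 3.

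**Figure D1:**
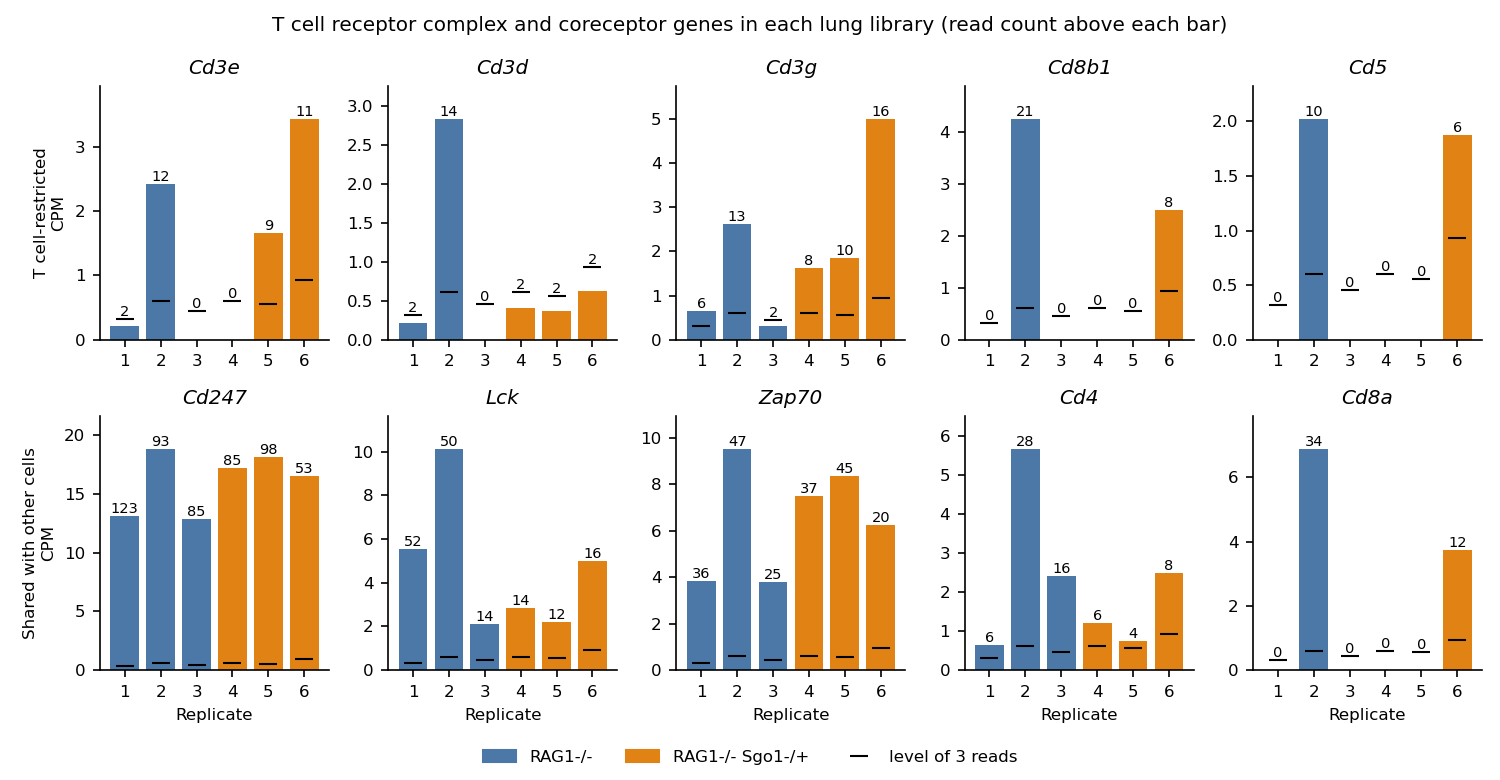
Level of each member in each library (y axis, CPM; x axis, replicate; blue bars, RAG1-/-; orange bars, RAG1-/- Sgo1-/+), with the read count above each bar and a dash at the level of 3 reads. Cd8b1, Cd5 and Cd8a stand above 0 in replicates 2 and 6 alone, and Cd247 lies between 12.9 and 18.8 CPM in all 6 libraries.

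Among the CD3 chains, Cd3e, the epsilon chain on which complex assembly depends, had 2, 12 and 0 reads in the RAG1-/- lungs, against 0, 9 and 11 in the RAG1-/- Sgo1-/+ lungs. Its 3 high libraries were replicates 2, 5 and 6, and 3 of 6 libraries were at or below 3 reads. Cd3d, the delta chain, had 2, 14 and 0 reads in the RAG1-/- lungs, against 2, 2 and 2 in the RAG1-/- Sgo1-/+ lungs. Only replicate 2 passed 3 reads for this gene, in contrast with Cd3e, which reached 3.43 CPM in replicate 6 against 0.624 CPM for Cd3d there. Cd3g, the gamma chain, was the most widely read of the CD3 genes, with 6, 13 and 2 reads in the RAG1-/- lungs, against 8, 10 and 16 in the RAG1-/- Sgo1-/+ lungs. Its RAG1-/- libraries ranged from 0.303 to 2.63 CPM and its RAG1-/- Sgo1-/+ libraries from 1.62 to 4.99 CPM, so the groups overlapped through replicate 2.

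Cd3d and Cd3g are neighbours on chromosome 9 that are transcribed away from each other, and Cd3e lies close by. Their balance varied between the libraries by value, which was not tested. Of the reads on the pair Cd3g and Cd3d, Cd3g took 13 of 27 in replicate 2 (48.1%, exact 95% interval 28.7 to 68.1%) and 16 of 18 in replicate 6 (88.9%, 65.3 to 98.6%). In replicates 1, 4 and 5 it took 6 of 8, 8 of 10 and 10 of 12 reads. The intervals of replicates 2 and 6 overlapped, and they cover counting error only, with reads taken as independent. Promoter sequences are shown for this locus and for Cd8a, whose reads were confined to replicates 2 and 6. They are the 250 bases before each start in RefSeq on GRCm38.p6, 5' to 3' on the gene's strand. RefSeq promoters were matched for 8 of the 10 members, and Cd4 and Cd8b1 are named without a sequence. Capitals mark matches, on either strand, to short motifs. The motif of Ets factors was searched as GGAAG. That of Runx factors was searched as TGTGGT. Tcf factor matches were to CTTTGA. Matches for Gata factors were to AGATAA. Matches of different motifs did not overlap in the sequences printed. Among all 32851 promoter windows of this length the Ets motif was found in 64.1%, the Runx motif in 14.0%, the Tcf motif in 13.8% and the Gata motif in 9.99%.
Cd3e, chr9:45009612-45009861, minus strand: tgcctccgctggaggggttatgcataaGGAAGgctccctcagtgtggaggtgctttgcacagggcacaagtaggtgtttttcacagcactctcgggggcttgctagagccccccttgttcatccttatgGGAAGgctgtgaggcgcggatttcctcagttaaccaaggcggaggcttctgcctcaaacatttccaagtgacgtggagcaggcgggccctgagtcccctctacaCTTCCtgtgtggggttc
Cd3d, chr9:44981536-44981785, plus strand: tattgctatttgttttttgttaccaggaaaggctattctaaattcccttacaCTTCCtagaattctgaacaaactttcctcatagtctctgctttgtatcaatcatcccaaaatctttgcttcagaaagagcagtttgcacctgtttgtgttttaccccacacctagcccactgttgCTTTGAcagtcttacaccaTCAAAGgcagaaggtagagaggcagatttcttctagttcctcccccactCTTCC
Cd3g, chr9:44980432-44980681, minus strand: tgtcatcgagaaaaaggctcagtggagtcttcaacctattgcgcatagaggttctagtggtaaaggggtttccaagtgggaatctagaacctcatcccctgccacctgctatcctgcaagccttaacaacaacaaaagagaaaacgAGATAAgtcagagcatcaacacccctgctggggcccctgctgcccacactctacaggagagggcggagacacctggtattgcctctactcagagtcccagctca
Cd8a, chr6:71373177-71373426, plus strand: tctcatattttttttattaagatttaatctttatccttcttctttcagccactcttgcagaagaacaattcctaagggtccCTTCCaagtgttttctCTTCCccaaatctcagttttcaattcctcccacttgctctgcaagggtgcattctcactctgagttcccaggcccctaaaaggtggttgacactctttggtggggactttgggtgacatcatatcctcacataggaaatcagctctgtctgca
The windows held 3 Ets matches for Cd3e, 2 for Cd3d, 0 for Cd3g and 2 for Cd8a. The Cd3d window also held 2 Tcf matches and the Cd3g window 1 Gata match. The Runx motif was matched in none of these 4 windows. The letters describe the windows and no binding was measured.

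The CD8 coreceptor was read in the same pair of libraries. Cd8a had 34 reads in replicate 2, 12 in replicate 6 and 0 in the other 4. Cd8b1, its partner chain, had 21 reads in replicate 2, 8 in replicate 6 and 0 in the other 4. Thus the gene of the alpha chain was in no library read without that of the beta chain. Cd8b1 made up 38.2% of the CD8 reads in replicate 2 (exact 95% interval 25.4 to 52.3%) and 40% in replicate 6 (19.1 to 63.9%). At 0 reads, each of the other 4 libraries allows up to 3 reads, or 0.320 to 0.606 CPM, if reads are independent. Xcr1, a dendritic cell gene, had 38, 24 and 56 reads in the RAG1-/- lungs, against 16, 82 and 24 in the RAG1-/- Sgo1-/+ lungs. Of 15 dendritic genes listed, 1 was highest in CPM in replicate 2, 2 in replicate 6 and 7 in replicate 5. The cellular source of the Cd8a reads was not tested.

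Cd4, the coreceptor of helper T cells, was above 3 reads in every library, with 6, 28 and 16 reads in the RAG1-/- lungs, against 6, 4 and 8 in the RAG1-/- Sgo1-/+ lungs. Its highest level was again in replicate 2 (5.66 CPM), and the other libraries lay between 0.641 and 2.50 CPM. Siglech, a plasmacytoid dendritic cell gene, had 12, 8 and 15 reads against 4, 7 and 2. In CPM its groups overlapped, at 1.28, 1.62 and 2.27 against 0.808, 1.30 and 0.624. Cd5, which encodes a receptor that restrains T cell receptor signals, had 10 reads in replicate 2, 6 in replicate 6 and 0 in the other 4. All 16 reads of Cd5 and all 29 of Cd8b1 thus came from replicates 2 and 6, and both genes passed the minimum of 10 reads through these libraries.

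The signalling members were read in every library. Cd247, the zeta chain, had 123, 93 and 85 reads in the RAG1-/- lungs, against 85, 98 and 53 in the RAG1-/- Sgo1-/+ lungs. It was the steadiest member, at 14.9 ± 3.35 CPM in RAG1-/- and 17.3 ± 0.816 CPM in RAG1-/- Sgo1-/+ (SD, *n*=3 each). Zap70 had 36, 47 and 25 reads in the RAG1-/- lungs, against 37, 45 and 20 in the RAG1-/- Sgo1-/+ lungs. Its level was 3.78 and 3.84 CPM in replicates 3 and 1, and 6.24 to 9.50 CPM in the other 4 libraries. Lck had 52, 50 and 14 reads in the RAG1-/- lungs, against 14, 12 and 16 in the RAG1-/- Sgo1-/+ lungs. In CPM Lck was highest in replicate 2 (10.1), followed by replicate 1 (5.55) and replicate 6 (4.99), and it was at 2.12 to 2.83 in the remaining 3 libraries.

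Per kilobase of exon, so that genes can be set beside each other, Cd247 was at 2.82 to 4.12 CPM, Zap70 at 1.69 to 4.23 and Lck at 0.914 to 4.36 over the 6 libraries. Cd3g ranged from 0.296 to 4.88 CPM per kilobase and was the highest member of replicate 6, whereas Lck was the highest of replicate 2. The other 6 members reached at most 2.86 CPM per kilobase, the value of Cd8b1 in replicate 2. Cd247 was the highest member per kilobase in replicates 1, 3, 4 and 5, although the ranges of Cd247, Zap70, Lck and Cd3g over the libraries overlapped. Of all reads on the 10 members, the T cell-restricted genes took 4.41%, 21.7% and 1.41% in the RAG1-/- lungs, against 6.58%, 11.7% and 28.3% in the RAG1-/- Sgo1-/+ lungs.

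In the comparison of the groups no member was called by the quasi-likelihood test of edgeR at 2-fold or more and *P* under 0.05 after Benjamini-Hochberg adjustment. Of all 17231 genes tested, 0 were called (0%), 976 had an unadjusted *P* under 0.05 (5.66%), DESeq2 called 1 gene, and limma-voom and the exact test of edgeR called 0. Of the members, 0 of 10 had an unadjusted *P* under 0.05 and 0 of 10 had groups that did not overlap, against 11.8% of all genes with groups apart. By value 4 members were higher in RAG1-/- Sgo1-/+ and 6 were lower. The median log2 fold change was -0.51 over the members and 0.03 over all genes tested. In bulk lung, fewer cells of a type and less RNA per cell cannot be told apart.

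The value for Cd3g was the highest of the members, at a log2 fold change of 1.27 (SE 0.84, adjusted *P*=0.852, edgeR), followed by Cd3e at 1.01 (SE 1.38, adjusted *P*=0.924). Zap70 was at 0.41 (SE 0.41, adjusted *P*=0.890) and Cd247 at 0.22 (SE 0.21, adjusted *P*=0.883). The lowest values were those of Cd3d (-1.01, SE 1.36), Cd8a (-0.98, SE 1.82) and Cd4 (-0.98, SE 0.82). Cd8b1 (-0.86, SE 1.85), Lck (-0.84, SE 0.57) and Cd5 (-0.18, SE 1.83) were also below 0. The adjusted *P* of these 6 members lay between 0.855 and 0.992 in edgeR. Permuting the CPM of each gene exactly over the libraries (two-sided) gave an exact *P* between 0.3 and 1 for the 10 members, and the smallest *P* it allows with 3 libraries a group is 0.1. The SE exceeded the size of the difference for Cd3e, Cd3d, Cd8a, Cd8b1 and Cd5, and Cd247 had the smallest SE.

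**Figure D2:**
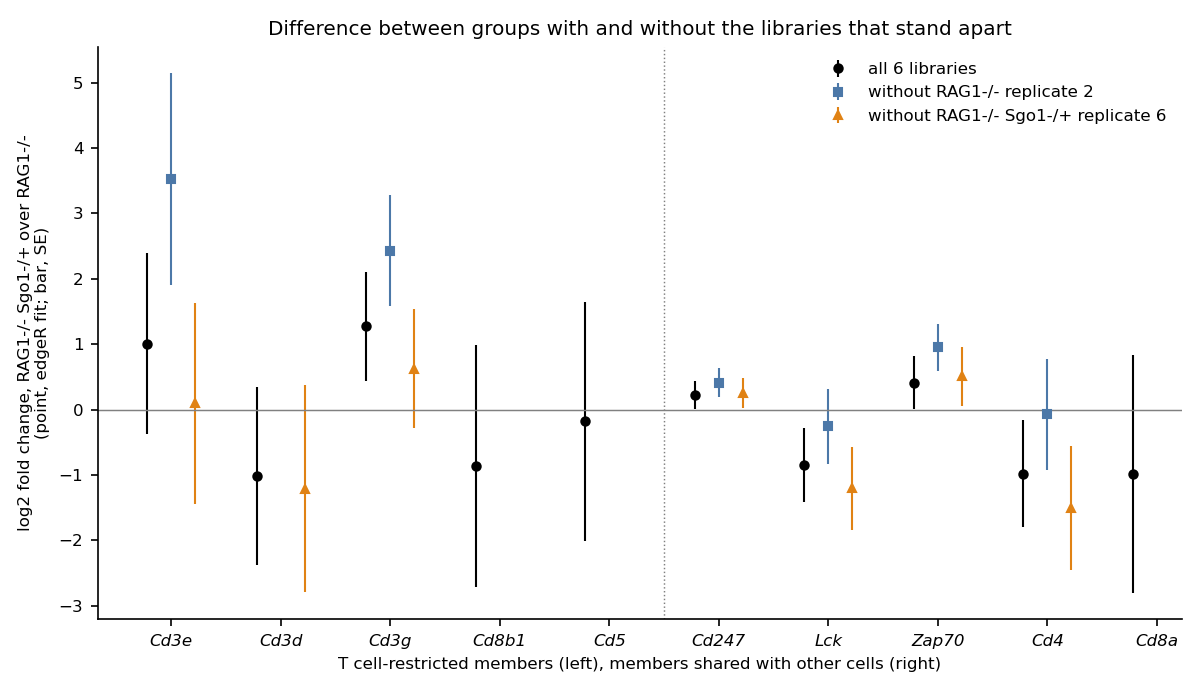
Log2 fold change of each member (y axis; point, edgeR estimate of RAG1-/- Sgo1-/+ over RAG1-/-; bar, SE) with all 6 libraries, without replicate 2 and without replicate 6. Values that would rest on a group at 0 reads or a gene under 10 reads are left out. Cd3g moves from 1.27 to 2.43 without replicate 2 and to 0.63 without replicate 6, while Cd247 stays between 0.22 and 0.41.

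The values depended on the 2 libraries that held most T cell-restricted reads. Without replicate 2, Cd3d, Cd8b1 and Cd5 fell under 10 reads and 7 members were tested. Cd3g then had a log2 fold change of 2.43 (SE 0.85, edgeR unadjusted *P*=0.0194, adjusted *P*=0.987) and Zap70 of 0.95 (SE 0.36, unadjusted *P*=0.0272, adjusted *P*=0.987). Both were higher in RAG1-/- Sgo1-/+ at an unadjusted *P* under 0.05, as were 1.81% of all genes in that fit, and neither passed the correction. Cd3e moved from 1.01 to 3.53 without replicate 2 (SE 1.62, adjusted *P*=0.987), Cd4 from -0.98 to -0.07 (SE 0.85, adjusted *P*=0.996) and Lck from -0.84 to -0.26 (SE 0.57, adjusted *P*=0.993), all in edgeR. Without replicate 3, Lck was lower in RAG1-/- Sgo1-/+, at -1.25 on the log2 scale (SE 0.48, edgeR unadjusted *P*=0.0303, adjusted *P*=0.997), beside 1.53% of all genes lower in that fit. Without both replicates 2 and 6, a choice made after the data were seen, 6 members were tested. Zap70 was then at 1.05 (SE 0.38, edgeR unadjusted *P*=0.0240, adjusted *P*=0.993), beside 1.74% of all genes higher in that fit. Leaving out replicate 6 alone gave 0 of 10 members with an edgeR unadjusted *P* under 0.05, beside 850 of all 17049 genes in that fit. It moved Cd3e to 0.10, Cd3g to 0.63 and Cd4 to -1.50. Cd3e was also nearer 0 without replicate 1 (0.48) or replicate 3 (0.40).

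Summed over the 5 T cell-restricted members, the level was 1.07, 14.1 and 0.303 CPM in the RAG1-/- lungs, against 2.02, 3.89 and 13.4 CPM in the RAG1-/- Sgo1-/+ lungs. The ratio of group means was 1.25-fold (log2 0.32), within the pooled SD of 2.23 on the log2 scale between libraries of a group. Summed over the 5 shared members, the level was 23.2, 50.9 and 21.2 CPM against 28.7, 29.5 and 34.0 CPM, a ratio of 0.967 (log2 -0.05, pooled SD 0.50). The direction of the first ratio depended on the libraries kept. Without replicate 2 its log2 value was 3.23, and it was -0.17 without replicate 1, -0.24 without replicate 3 and -0.81 without replicate 6. The ratio of the shared members was 0.47 on the log2 scale without replicate 2.

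The receptor chains themselves gave few reads. Trac, the alpha constant gene, had 0, 22 and 2 reads in the RAG1-/- lungs, against 0, 2 and 0 in the RAG1-/- Sgo1-/+ lungs. The beta constant gene Trbc1 had 14, 38 and 8 reads against 7, 6 and 14, and Trbc2 had 23, 36 and 24 against 17, 10 and 2. In CPM the groups overlapped for Trbc2, at 2.46, 7.27 and 3.63 against 3.43, 1.85 and 0.624. Constant genes can be transcribed from unrearranged loci in innate lymphocytes, and the near-identical Trbc1 and Trbc2 may share reads. The alpha gene made up 22 of 96 alpha and beta constant reads in replicate 2 (22.9%, exact 95% interval 15.0 to 32.6%) and 0 of 16 in replicate 6 (upper bound 20.6%). These intervals overlapped. Replicates 2 and 6 both held more than 3 reads of Cd3e, Cd3g, Cd8a, Cd8b1 and Cd5. For Cd3d replicate 2 had 14 reads and replicate 6 had 2, and for Trac they had 22 and 0. Of the gamma and delta constant genes, Trdc had 8, 12 and 11 reads against 11, 4 and 6, and Trgc4 had 9, 0 and 3 against 3, 5 and 5. Trgc1 and Trgc2, near-identical genes, had at most 7 reads in a library.

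Variable segments of the T cell receptor, whose joining needs the RAG1 recombinase, were read 6, 20 and 5 times in the RAG1-/- lungs, against 2, 1 and 6 times in the RAG1-/- Sgo1-/+ lungs, over 152 segments. Beta variable segments accounted for 16 of the 20 reads of replicate 2, spread over 6 of the 24 segments, of which Trbv13-3 had 6 reads. The other 5 libraries held 0 to 2 beta variable reads. Alpha variable segments had 2 reads in each RAG1-/- library and 0 in each RAG1-/- Sgo1-/+ library. In each RAG1-/- library these reads fell on 1 segment. No alpha segment reached 3 reads, the smallest detected amount, so these counts do not separate libraries or groups. Delta variable segments had 2, 0 and 3 reads in the RAG1-/- lungs, against 0, 0 and 4 in the RAG1-/- Sgo1-/+ lungs. Gamma variable segments had 2, 2 and 0 reads against 0, 1 and 1. The T cell reads of replicate 2 were thus accompanied by beta variable reads and by immunoglobulin reads. Those of replicate 6 were accompanied by 1 beta, 1 gamma and 4 delta variable reads and by 0 immunoglobulin variable reads.

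**Figure D3:**
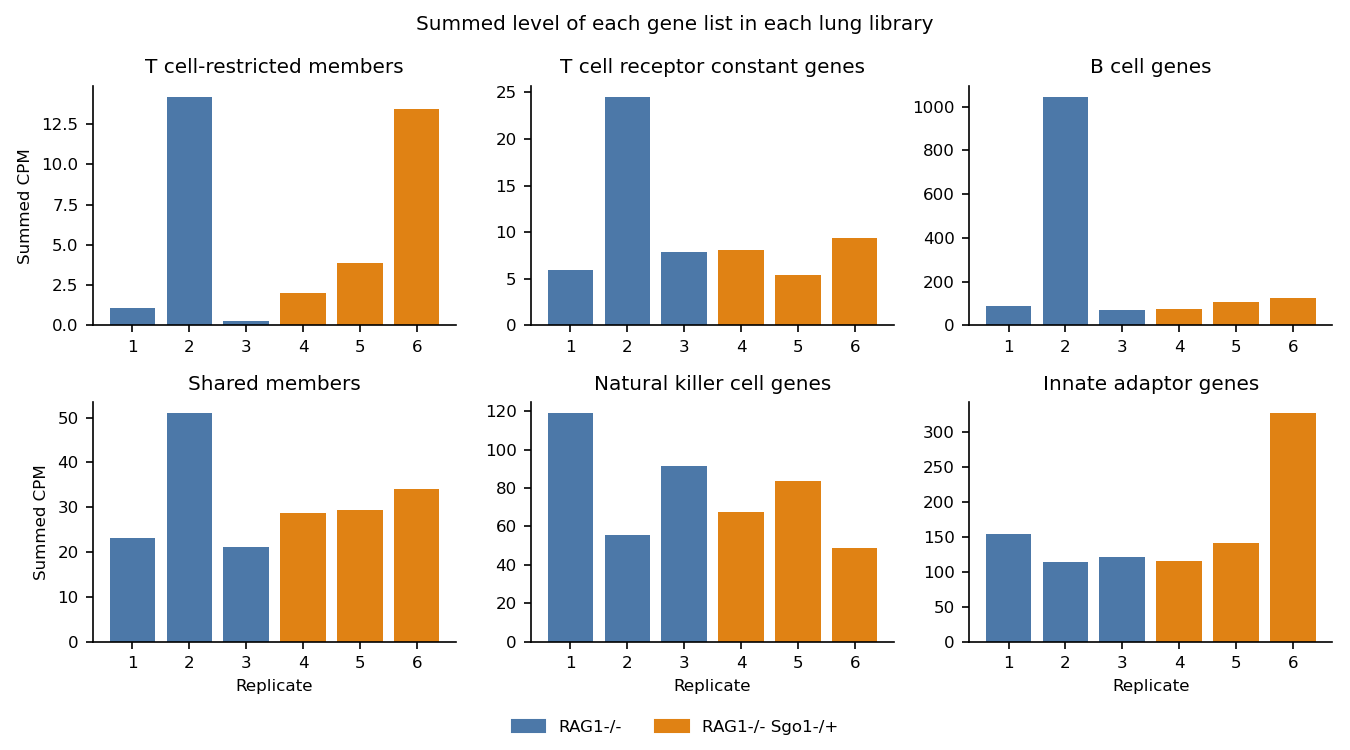
Summed CPM of 6 gene lists in each library (y axes, summed CPM, each from 0 on its own scale; x axes, replicate; blue, RAG1-/-; orange, RAG1-/- Sgo1-/+). Replicate 2 stands out in B cell genes (1042 CPM, others at most 127 CPM), replicate 6 in innate adaptor genes (326 CPM, others at most 153 CPM), and both in T cell-restricted members.

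Lists of other cell types moved with the members in part. A list of 22 B cell genes, of which 21 were tested, summed to 1042 CPM in replicate 2 and to 72.9 to 127 CPM elsewhere, and 8 of the 21 had an unadjusted *P* under 0.05, all lower in RAG1-/- Sgo1-/+ (2.52% of all genes). Among the 8 were Ms4a1, Igkc, Jchain and Ighm, each highest in replicate 2. Without replicate 2 this list had 12 genes tested and 1 gene (Spib, higher) under that threshold, beside 1.81% of all genes higher in that fit. The summed level of NK genes was lowest in replicates 6 (49.0 CPM) and 2 (55.4 CPM) and at 67.3 to 119 CPM in the other 4, but its genes differed. Of 20 tested, 12 were highest in replicate 1, 2 in replicate 2 (Klrd1 at 11.9 CPM and Cd160 at 2.42 CPM) and 0 in replicate 6. Ncr1, an activating NK receptor, had 54, 8 and 29 reads in the RAG1-/- lungs, against 12, 26 and 0 in the RAG1-/- Sgo1-/+ lungs. Klrb1c had 59, 10 and 56 reads against 18, 19 and 6, and Eomes, an NK transcription factor, had 30, 8 and 10 against 4, 8 and 2, which in CPM placed replicate 2 (1.62) after replicate 1 (3.20). Among the NK genes 1, the granzyme gene Gzma, was lower at an unadjusted *P* under 0.05 (log2 fold change -1.34, SE 0.43, edgeR adjusted *P*=0.832). The part of these cell types in the members' values was not tested.

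Replicate 6 also stood apart in genes of innate receptor signalling, among them the ITAM adaptors Tyrobp and Fcer1g. The 6 innate adaptor genes summed to 326 CPM there and to 113 to 153 CPM in the other 5 libraries. Tyrobp had 322, 96 and 178 reads in the RAG1-/- lungs, against 113, 129 and 205 in the RAG1-/- Sgo1-/+ lungs, where replicate 6 is the shallowest library. Fcer1g had 467, 141 and 241 reads against 181, 195 and 274. Their log2 fold changes were 0.41 (SE 0.37, adjusted *P*=0.876, edgeR) and 0.43 (SE 0.33, adjusted *P*=0.863). Fcgr3, an Fc receptor gene that NK cells and macrophages use, was the gene of these 6 with an unadjusted *P* under 0.05 (log2 fold change 0.85, SE 0.38, edgeR adjusted *P*=0.832), beside 3.15% of all genes higher at that *P*. It had 296, 118 and 192 reads in the RAG1-/- lungs, against 138, 191 and 296 in the RAG1-/- Sgo1-/+ lungs, or 92.3 CPM in replicate 6 and 23.8 to 35.4 CPM elsewhere. Without replicate 6, 0 of the 6 genes were higher and 1 was lower at that threshold, beside 429 higher and 421 lower of all 17049 genes in that fit. The median log2 fold change of the 6 genes went from 0.42 to -0.06.

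Downstream of the receptor, 41 of 43 listed signalling genes were tested and 0 had an unadjusted *P* under 0.05 in edgeR, with 22 above 0 and a median log2 fold change of 0.01. Lat, the scaffold that ZAP-70 phosphorylates, had 31, 38 and 21 reads in the RAG1-/- lungs, against 12, 22 and 20 in the RAG1-/- Sgo1-/+ lungs. The summed level of the list was even, at 832 to 1010 CPM in all 6 libraries, and many of its genes serve other leukocytes too. Of 26 surface genes of T cells 19 were tested, of which 9 had a log2 fold change above 0 and the median was -0.01. The costimulatory receptor gene Cd28 had 12, 18 and 16 reads against 8, 8 and 6. In CPM its groups overlapped, at 1.28, 3.64 and 2.42 against 1.62, 1.48 and 1.87. Cd6, which is related to Cd5, had 3 reads in all, and Cd40lg and Trat1 had 0.

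Of the 19 surface genes, 3 (Il7r, Cd69 and Thy1) had their 2 highest CPM values in replicates 2 and 6, as did 8.14% of all genes tested. Thy1, which fibroblasts and innate lymphoid cells also carry, was at 27.9 and 21.8 CPM there and at 13.7 to 21.1 CPM in the other 4 libraries. Il7r, the interleukin-7 receptor gene, was at 17.0 and 29.3 CPM and elsewhere at 3.95 to 14.1 CPM, and the activation marker Cd69 at 8.89 and 4.99 CPM against 0.808 to 2.59 CPM. Cd2, an adhesion receptor of T and NK cells, did not have this order, with 10.1 and 9.36 CPM in replicates 2 and 6 and 12.2 CPM in replicate 1. All 14 listed transcription factor genes were tested, and 2 had an unadjusted *P* under 0.05, both lower in RAG1-/- Sgo1-/+, beside 2.52% of all genes lower at that *P*. These were Ets1 (log2 fold change -0.43, SE 0.15, edgeR adjusted *P*=0.832) and Satb1 (-0.82, SE 0.31, edgeR adjusted *P*=0.832). Both were highest in replicate 2, at 189 CPM for Ets1 and 20.4 CPM for Satb1. Without replicate 2, 0 of these 14 genes had an edgeR unadjusted *P* under 0.05, beside 307 higher and 286 lower of all 16968 genes in that fit. Bcl11b, which holds T cell identity, was highest in replicate 2, with 10, 53 and 2 reads in the RAG1-/- lungs, against 6, 12 and 12 in the RAG1-/- Sgo1-/+ lungs. Tcf7, a factor of T cells and innate lymphoid cells, had 77, 68 and 51 reads against 57, 45 and 48. In CPM it was highest in replicates 6 (15.0) and 2 (13.7) and at 7.72 to 11.5 in the other 4. Lef1 had 11, 3 and 5 reads against 6, 6 and 3. Innate lymphoid (11 of 16 tested), dendritic (15 of 15) and lung (8 of 8) gene lists had 0 genes with an unadjusted *P* under 0.05 in edgeR. Their median log2 fold changes were 0.27, 0.17 and -0.01.

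The pattern of the summed T cell-restricted members was closest, over 6 libraries, to that of Mavs (Pearson *r* of log2 CPM 0.980), among 14445 genes with at least 50 reads. The next 9 were Fastkd2, Stradb, Sharpin, Baz1a, Pgam5, Tmem86b, Il2rg, Tnfaip8l2 and Gng7, with *r* down to 0.959. These genes were read in all libraries and spanned narrow ranges. Mavs lay between 32.2 and 39.4 CPM, and Il2rg, the common gamma chain of lymphocyte cytokine receptors, between 11.2 and 22.5 CPM with its highest value in replicate 6. The coefficients describe 6 libraries that share depth and composition with the members and carry no test.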

How the data were processed

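RNA was isolated from lung of 3 RAG1-/- and 3 RAG1-/- Sgo1-/+ mice and sequenced as paired-end reads on an Illumina MiSeq. Groups were taken from the labels. The deposited values are counts of reads per Entrez gene, made by the authors with GeneSifter on an earlier mouse build and not normalized. BWA and edgeR are named in the submitters' processing notes. Strand and the treatment of multiply mapped reads are not given in the sources used here. Each library is listed under 2 headings with equal values, and the first was used. The authors' own comparison was not used. Between 63.5% and 69.0% of nonzero counts per library were even, and between 78.7% and 81.6% among small nonzero counts, where most T cell-restricted counts lie. Reads of a pair may therefore have been counted singly. The intervals cover counting error only and take reads as independent. If pairs were counted singly, they are too narrow and the bounds given at 0 reads are too low.

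Symbols were matched for 24048 genes (93.0%). Genes with at least 10 summed counts were fitted in edgeR 4.0.16 under R 4.3.3 (quasi-likelihood *F* test), library sizes being the total counts. A call needed 2-fold or more and *P* under 0.05 after Benjamini-Hochberg adjustment. SE is the log2 fold change over the square root of *F*. Libraries of a group are from separate mice. Exact intervals are Clopper-Pearson. Exon lengths and transcripts are from GENCODE M21 and promoters from RefSeq (GRCm38.p6). ITAMs were searched in the longest open reading frame.

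The workflow was tested on simulated data. Changes were placed there only in genes with more summed reads than most members had, so it does not show how the test performs at their counts. Alternatives were TMM, DESeq2 size factors, no filter, filterByExpr, the edgeR exact test, DESeq2 1.42.0, limma-voom (limma 3.58.1), thinning to the smallest total and leaving out each library. Members, lists and tests were chosen with earlier results of these data known. Named genes are the members, the targeted genes, read receptor constant genes, up to 5 genes per list with the lowest unadjusted *P* under 0.05, a set list of lineage genes, and the 10 genes most like the summed T cell-restricted members. Ms4a1, Xist, Spib, Il7r, Cd69, Klrd1, Cd160, Cd40lg, Trat1 and Trbv13-3 were named after their values were seen. Some genes that this rule names are not reported here.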

Additional observations from a re-analysis of the deposited data

How the results depend on the processing

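Across the table, 0 genes were called with all libraries and 1 with DESeq2, and leaving out each library gave 0 to 1 (1 without RAG1-/- Sgo1-/+ replicate 5). Genes with an unadjusted *P* under 0.05 and a 2-fold difference numbered 233, against 118 with filterByExpr, 152 with DESeq2 and 151 with limma-voom. Called members stayed at 0 under all alternatives run. Members with an unadjusted *P* under 0.05 went from 0 to between 0 and 2 on leaving out a library (Cd3g and Zap70 without replicate 2, Lck without replicate 3) and to 1 (Zap70) without replicates 2 and 6 together. limma-voom reversed Cd3d (0.72), Cd8a (0.26), Cd8b1 (0.29) and Cd5 (0.45), and thinning reversed Cd5 (0.25). Leaving out a library moved Cd5 between -4.92 and 0.51 and Cd8a between -6.75 and 5.71. The extremes compare with a group at 0 reads, depend on the prior count and are no bounds. The log2 ratio of the summed T cell-restricted members ranged from -0.81 to 3.23 on leaving out a library, and that of the shared members from -0.27 to 0.47, both highest without replicate 2. Apart from the fewer genes or libraries these settings use, the cause was not tested. Cd3e, Cd3g, Cd247, Cd4, Lck and Zap70 kept their sign in every alternative that tested them. filterByExpr left 4 members to test. Cd8a, Cd8b1 and Cd5 had 0 reads in 4 libraries, which allows up to 0.320 to 0.606 CPM at these depths if reads are independent. No paired analysis was possible because the groups share no replicate number.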
